A study of Homo sapiens with 18 samples.

Results

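QPCT, RBP7, SANBR, ZNF114, HYI, PDZK1IP1, OR7E19P and BST1 are 8 human genes that were far brighter in SKOV-3 ovarian carcinoma cells transfected to express the luteinizing hormone receptor (LHR+ cells) than in SKOV-3 cells without it (LHR- cells). The brightest probe set of each differed at least 5.06-fold between geometric means of intensity + 1. They were chosen by the difference in intensity between LHR+ and LHR- arrays, so it is described here and not tested. Of the 54675 probe sets on the arrays, 13 list 1 of these symbols alone, which is 8 genes of the 19775 that have such a probe set, and 1 further probe set lists C2orf74 together with SANBR. Transcript levels were measured as Affymetrix U133 Plus 2.0 probe set intensities on 18 arrays in 6 groups of 3. The groups were LHR+ cells without luteinizing hormone (LH), LHR+ cells given 50 ng/ml LH for 1, 4, 8 or 20 h (called LH1, LH4, LH8 and LH20), and LHR- cells. Every group was cultured SKOV-3, so all share the background of that tumour line, and LHR- cells received no LH. The LHR+ cells were a stable transfectant, and the sources used here do not say whether they were 1 clone. The LHR- cells are called the parent line in the methods and mock-transfected cells elsewhere in the study. LHR expression therefore cannot be told apart from the selection of the transfected line, nor LH from hours in culture, since untreated LHR+ cells at 1, 4, 8 or 20 h were not among the samples.

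LHR is the G protein-coupled receptor through which LH acts on theca, granulosa and luteal cells of the ovary, and it raises intracellular cyclic AMP. The known roles of the 8 genes are diverse. QPCT encodes a secreted glutaminyl cyclase that caps the N terminus of peptide hormones and chemokines with pyroglutamate. RBP7 encodes a cytosolic retinol-binding protein. BST1, also known as CD157, encodes a membrane-anchored enzyme related to CD38 that makes and hydrolyses cyclic ADP-ribose. PDZK1IP1, also known as MAP17, encodes a small membrane protein that binds the scaffold PDZK1. SANBR, earlier named KIAA1841, encodes a protein known in mouse B cells as a regulator of antibody class switching. ZNF114 encodes a zinc finger protein, HYI a putative hydroxypyruvate isomerase, and OR7E19P is a pseudogene of the olfactory receptor family.

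The 250 bases before the RefSeq start of QPCT, RBP7, SANBR and PDZK1IP1 are shown because these are the 4 of the 8 genes with a promoter sequence in the table used, and they let the stretches ahead of genes with like differences be set side by side. ZNF114, HYI, OR7E19P and BST1 are named only. The sequences are given 5′ to 3′ from assembly GRCh38.p14, with each CG dinucleotide in capitals. The files of this series name no genome build, and SANBR is shown for the upstream of its 2 listed starts.
QPCT, chr2:37344380-37344629, plus strand: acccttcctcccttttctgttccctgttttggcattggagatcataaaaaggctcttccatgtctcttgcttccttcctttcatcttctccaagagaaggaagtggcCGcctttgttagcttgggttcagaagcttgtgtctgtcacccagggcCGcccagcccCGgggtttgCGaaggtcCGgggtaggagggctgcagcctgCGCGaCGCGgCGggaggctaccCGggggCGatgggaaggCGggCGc
RBP7, chr1:9996978-9997227, plus strand: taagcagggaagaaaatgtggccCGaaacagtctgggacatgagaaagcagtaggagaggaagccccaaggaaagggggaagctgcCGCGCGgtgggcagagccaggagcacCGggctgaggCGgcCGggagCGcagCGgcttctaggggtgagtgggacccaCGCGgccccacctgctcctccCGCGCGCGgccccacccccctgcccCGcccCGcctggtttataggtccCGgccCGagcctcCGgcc
SANBR, chr2:61065621-61065870, plus strand: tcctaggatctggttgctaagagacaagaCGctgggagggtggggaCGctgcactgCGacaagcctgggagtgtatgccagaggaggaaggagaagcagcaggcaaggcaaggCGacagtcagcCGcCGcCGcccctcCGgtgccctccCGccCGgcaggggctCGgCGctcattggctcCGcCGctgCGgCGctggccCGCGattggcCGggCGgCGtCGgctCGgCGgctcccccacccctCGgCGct
PDZK1IP1, chr1:47190037-47190286, minus strand: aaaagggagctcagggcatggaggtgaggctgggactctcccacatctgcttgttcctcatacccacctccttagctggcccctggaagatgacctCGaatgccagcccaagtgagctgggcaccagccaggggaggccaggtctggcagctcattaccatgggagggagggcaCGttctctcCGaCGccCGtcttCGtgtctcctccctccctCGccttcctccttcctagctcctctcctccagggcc
The 4 windows differ in CG content. SANBR holds 26 CG dinucleotides, RBP7 20, QPCT 14 and PDZK1IP1 7, against a median of 11 over 35116 windows of the same length in the table. As many or more CG dinucleotides were present in 19.6% of all windows for the SANBR count, in 32.4% for RBP7, in 44.8% for QPCT and in 58.9% for PDZK1IP1. The cyclic AMP response element TGACGTCA, searched on both strands, was in none of the 4 windows and is in 1.65% of all windows. Its shorter form TGACG, which the longer motif contains, was likewise in none on either strand, and is in 21.2% of all windows. The letters TATAAA were found in RBP7 alone, on the strand opposite to the one printed, 29 bases before the start, and 10.7% of all windows hold them on either strand.

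The arrays were alike in overall brightness, with medians between 46.9 and 57.9 in intensity units and between 47.4 and 51.1 in the LHR- group. The epithelial keratin genes KRT7, KRT8, KRT18 and KRT19, and PAX8 and ERBB2, which SKOV-3 is known to express, lay between 1786 and 9947 on all arrays, and EPCAM between 41.6 and 251. The 7 genes of a leukocyte, endothelial and erythroid list lay between 0.386 and 42.8, and their sum on 1 array was 55.5 to 69.6 in LHR+ cells and 76.0 to 102 in LHR- cells. The only probe set of LHCGR, the receptor gene, read 0.196 to 4.11 on all 18 arrays, transfected or not. It gives no check of the labels, and the sources used here do not say which part of the transcript the transgene carries.

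QPCT and RBP7 had the 2 largest differences of all 54675 probe sets between LHR+ and LHR- cells, in an order that turns with the pseudocount because QPCT was dim in LHR- cells. The intensity of QPCT was 888, 815 and 984 on the LHR+ arrays, against 9.69, 9.46 and 7.03 on the LHR- arrays, a difference of 6.53 in mean log2(intensity + 1). RBP7 read 2494, 2692 and 2725 on the LHR+ arrays and 53.8, 47.3 and 45.9 on the LHR- arrays, a log2 difference of 5.72. With a pseudocount of 16 in place of 1 the difference was 5.20 for QPCT and 5.35 for RBP7. Both groups of 3 were tight, with coefficients of variation of 9.47% and 4.75% in LHR+ cells for QPCT and RBP7, and 16.9% and 8.60% in LHR- cells.

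ZNF114 is covered by 2 probe sets and both showed the difference. The brighter one (1552946_at) read 858, 1038 and 838 in LHR+ cells and 25.6, 30.3 and 28.9 in LHR- cells. The other (1552947_x_at) read 605, 687 and 641 in LHR+ cells and 32.6, 32.7 and 29.9 in LHR- cells. Their log2 differences were 4.96 and 4.30, so every LHR+ array stood far above every LHR- array on both. HYI has 3 probe sets, with log2 differences of 4.77, 4.73 and 5.66. On its brightest probe set (223769_x_at) HYI read 937, 915 and 882 in LHR+ cells and 31.8, 35.6 and 29.8 in LHR- cells.

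PDZK1IP1 was lower in intensity and more variable. Its 219630_at probe set read 377, 263 and 355 in LHR+ cells and 13.3, 23.2 and 28.4 in LHR- cells, a log2 difference of 3.92. Its 1553589_a_at probe set read 328, 195 and 282 in LHR+ cells and 23.5, 4.00 and 29.0 in LHR- cells, a log2 difference of 4.09. The groups were far apart on both, although the coefficient of variation reached 69.8% for 1553589_a_at in LHR- cells. OR7E19P read 2920, 3106 and 3290 in LHR+ cells and 194, 184 and 264 in LHR- cells, a log2 difference of 3.87. BST1 read 484, 480 and 450 in LHR+ cells and 89.4, 84.8 and 104 in LHR- cells, a log2 difference of 2.34. These last 2 genes averaged 214 and 92.6 in LHR- cells, above the array medians, and BST1 had the smallest difference of the 8 by its brightest probe set.

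SANBR showed the difference on 1 of its probe sets and not on the other. 244673_at read 2137, 2012 and 2749 in LHR+ cells and 93.4, 61.0 and 45.1 in LHR- cells, a log2 difference of 5.14. 243539_at read 1196, 1299 and 899 in LHR+ cells and 969, 1026 and 650 in LHR- cells, a log2 difference of 0.37, and the groups overlapped. The probe set that lists C2orf74 and SANBR together (1568658_at) read 1666, 1634 and 1845 in LHR+ cells and 890, 782 and 960 in LHR- cells, a log2 difference of 0.97 with no overlap. The 3 probe sets that list SANBR therefore differed in how far LHR+ and LHR- cells were apart, and which transcripts each reads was not tested.

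**Figure D1:**
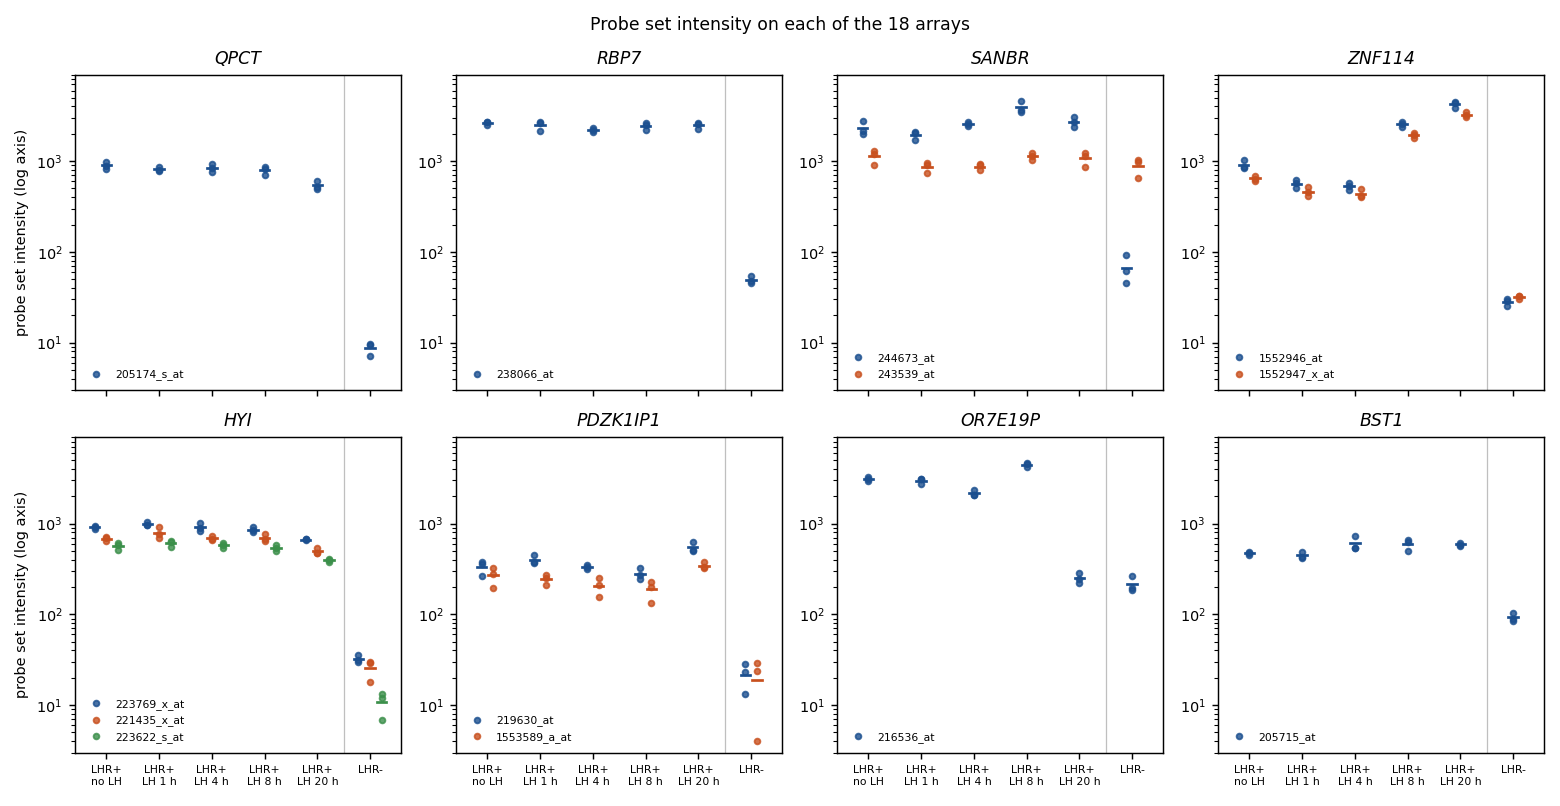
Intensity of the 13 probe sets (vertical log axis) on each array, with LHR+ cells without LH and after 1, 4, 8 and 20 h of LH on the left and LHR- cells on the right of each panel; points are arrays, short bars are means of 3, colours are probe sets. Apart from SANBR 243539_at, and OR7E19P at 20 h, the LHR- points lie below those of every LHR+ group.

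By size of the LHR+ over LHR- difference, QPCT, RBP7, SANBR, ZNF114, HYI, PDZK1IP1, OR7E19P and BST1 took ranks 1, 2, 4, 5, 6, 12, 14 and 95 of 19775 genes by their brightest probe sets and a pseudocount of 1. With a pseudocount of 16 the same genes took ranks 2, 1, 3, 4, 5, 11, 7 and 39, so the ranks depend on how values near background are treated. The genes between them were not chosen. COL11A1 held rank 3 at a log2 difference of 5.49, CLVS1 rank 7 at 4.60, COL13A1 rank 13 at 3.90, and EYA2 stood just ahead of BST1 at 2.34. The median log2 difference of the 13 probe sets was 4.73, against 0.02 for all probe sets, which is a consequence of the choice.

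Across the LH time course, ZNF114 and OR7E19P changed and the other 6 genes did not pass the criteria. A call needed an unadjusted p under 0.05, an adjusted p under 0.1 over all 54675 probe sets, geometric means at least 2-fold apart and no overlap between the 3 arrays of each side. The comparisons of LH1, LH4, LH8 and LH20 with LHR+ cells share the LHR+ arrays with the contrast that chose the genes. LH4/LH1, LH8/LH4, LH20/LH8 and LH20/LH1 share no array with it. Against LHR+ cells, 0 of the 13 probe sets were called at 1 h (0.481% of all probe sets), 0 at 4 h (1.89%), 2 at 8 h (1.52%) and 3 at 20 h (7.06%). By the limma p before adjustment, 2 of the 13 were under 0.05 at 1 h and 5 at 4 h. Between LH times, 0 were called in LH4/LH1 (1.52% of all, 2 of the 13 with an unadjusted p under 0.05), 3 in LH8/LH4 (1.17%), 1 in LH20/LH8 (4.27%) and 3 in LH20/LH1 (7.71%). All of these calls belonged to ZNF114 and OR7E19P.

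ZNF114 was lower early and rose later. On 1552946_at, which read 858, 1038 and 838 in LHR+ cells before LH, it read 505, 618 and 574 at 1 h and 538, 569 and 480 at 4 h. At 8 h it read 2577, 2404 and 2677, and at 20 h 3811, 4523 and 4389. Every array at 1 and 4 h lay below every untreated LHR+ array, every array at 8 h above them, and every array at 20 h above those at 8 h. At 1 h the log2 difference from LHR+ cells was -0.69 (standard error 0.12, adjusted p = 0.0184, limma) and at 4 h -0.78 (adjusted p = 0.00183, limma), both under a fold of 2. At 8 h it was 1.49 (adjusted p = 1.15e-05, limma) and at 20 h 2.22 (adjusted p = 6.53e-08, limma). From arrays that played no part in the choice of the 8 genes, LH8/LH4 was 2.27 (adjusted p = 1.03e-06, limma) and LH20/LH1 was 2.91 (adjusted p = 9.39e-09, limma). The limma fit took its spread from all 18 arrays, so these p-values are not free of the arrays used in the choice. 1552947_x_at followed the same course, with log2 differences from LHR+ cells of -0.49, -0.57, 1.57 and 2.34 at 1, 4, 8 and 20 h. Their adjusted p were 0.101, 0.0115, 4.43e-06 and 3.36e-08 (limma), so the 1 h difference missed the adjusted p criterion on this probe set. On 1552946_at the adjusted p at 1 h went above 0.1 in the least favourable alternative. LH20/LH8 was 0.73 and 0.76 on the 2 probe sets, with adjusted p of 0.00143 and 0.000684 (limma) and under a fold of 2.

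OR7E19P went the other way at the last time. It read 3110, 2738 and 3068 at 1 h, 2055, 2093 and 2364 at 4 h, 4567, 4667 and 4197 at 8 h and 289, 220 and 247 at 20 h. The 20 h arrays lay far below the 2920 to 3290 of untreated LHR+ cells and overlapped the 184 to 264 of LHR- cells. The log2 difference of LH20 from LHR+ cells was -3.63 (standard error 0.14, adjusted p = 5.75e-09, limma), of LH20 from LH8 -4.16 (adjusted p = 7.76e-09, limma) and of LH20 from LH1 -3.56 (adjusted p = 6.50e-09, limma). The step from 4 to 8 h was upward, with LH8/LH4 at 1.05 (adjusted p = 0.00143, limma). At 4 and 8 h the differences from LHR+ cells were -0.52 (adjusted p = 0.0595, limma) and 0.53 (adjusted p = 0.0566, limma), both under a fold of 2 with no overlap of arrays.

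QPCT and HYI were lower at 20 h by less than a fold of 2. QPCT read 609, 519 and 490 at 20 h, below all untreated LHR+ arrays (815 to 984) and all arrays at 1 h (771 to 859). Its log2 difference was -0.73 from LHR+ cells (adjusted p = 0.00179, limma) and -0.59 from LH1 (adjusted p = 0.00759, limma). At 1, 4 and 8 h it was -0.14, -0.09 and -0.17, with arrays that overlapped those of untreated LHR+ cells. HYI read 654, 669 and 678 on 223769_x_at at 20 h, below the 882 to 937 of LHR+ cells and the 965 to 1030 of LH1. The log2 differences of LH20 from LHR+ cells were -0.45, -0.46 and -0.53 on its 3 probe sets, with adjusted p of 0.00496, 0.0743 and 0.0501 (limma). From LH1 they were -0.57, -0.67 and -0.61, with adjusted p of 0.000959, 0.0108 and 0.0244 (limma). All 3 probe sets of HYI had no overlap of arrays in both comparisons.

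PDZK1IP1 and BST1 were higher at 20 h, again without a call. PDZK1IP1 read 499, 514 and 631 on 219630_at at 20 h, above untreated LHR+ cells (263 to 377). The log2 difference was 0.73 from LHR+ cells (standard error 0.23, adjusted p = 0.0373, limma) and 0.97 from LH8 (adjusted p = 0.0122, limma), just under a fold of 2. Leaving out LH8 replicate 3, LH20 replicate 1 or LH20 replicate 2 took LH20/LH8 past that fold, so that 2 of the 13 were then called in place of 1. On 1553589_a_at the differences were 0.39 and 0.90, with adjusted p of 0.684 and 0.302 (limma). BST1 read 739, 542 and 543 at 4 h, 660, 504 and 623 at 8 h and 572, 615 and 586 at 20 h, all above the 450 to 484 of untreated LHR+ cells. The log2 differences were 0.35, 0.33 and 0.33 at these times, with adjusted p of 0.231, 0.261 and 0.132 (limma).

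SANBR 244673_at was highest at 8 h, at 3435, 3673 and 4600. These arrays did not overlap those of untreated LHR+ cells (2012 to 2749) or of LH20 (2384 to 3065). The log2 difference of LH8 from LHR+ cells was 0.76 (standard error 0.22, adjusted p = 0.0780, limma) and of LH8 from LH4 0.60 (adjusted p = 0.211, limma), both under a fold of 2. 243539_at differed from LHR+ cells by -0.38 to 0.03 over the 4 times, with arrays that overlapped at each. RBP7 had no call at any time. Its arrays lay between 2067 and 2725 in all 5 LHR+ groups, and its log2 differences from LHR+ cells were -0.09, -0.26, -0.12 and -0.09 at 1, 4, 8 and 20 h, with adjusted p of 0.312 to 0.979 (limma). At 4 h alone its arrays, at 2067, 2308 and 2230, were all below those of untreated LHR+ cells.

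**Figure D2:**
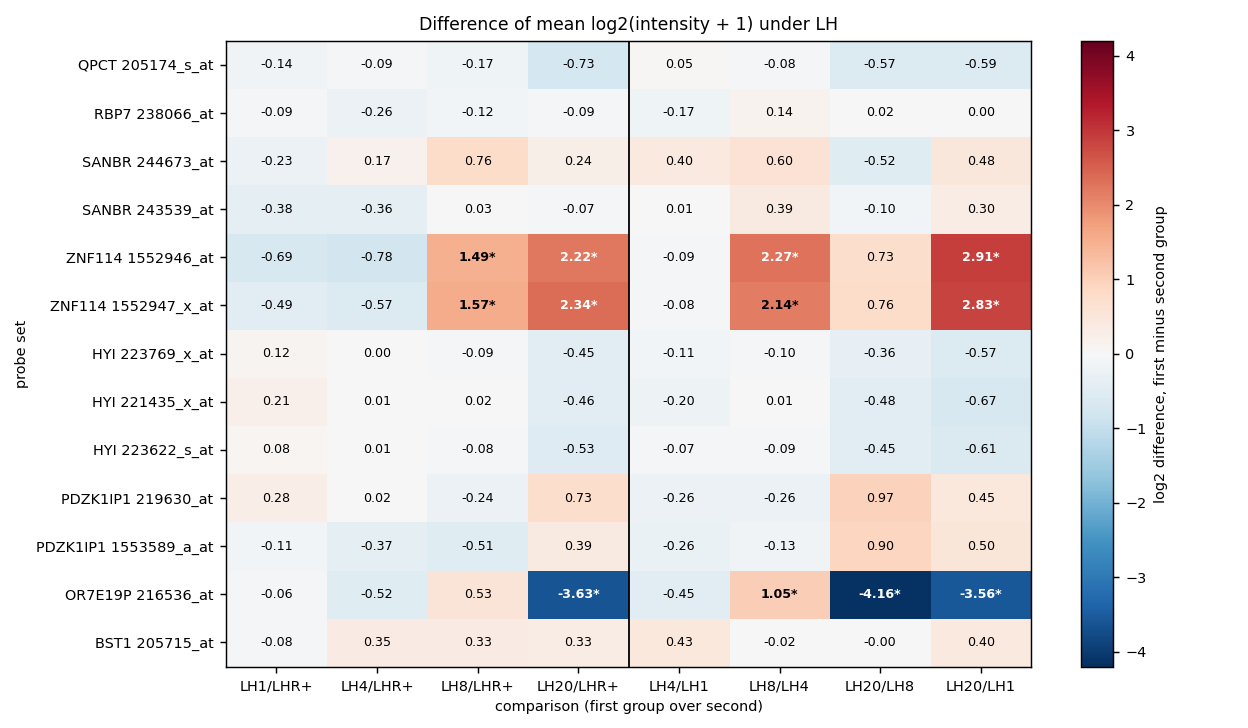
Difference of mean log2(intensity + 1), first group minus second, for the 13 probe sets (rows) in 8 comparisons (columns; those to the right of the line share no array with the LHR+ over LHR- contrast). Bold values with an asterisk passed all 4 criteria; they belong to both ZNF114 probe sets and to OR7E19P, which fell by 4.16 in LH20/LH8.

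Arrays of the 2 groups did not overlap for 3 of the 13 probe sets at 1 h (13.1% of all probe sets), 5 at 4 h (22.4%), 5 at 8 h (21.8%) and 9 at 20 h (35.2%). Between LH times they did not overlap for 4 of the 13 in LH4/LH1 (20.8%), 5 in LH8/LH4 (21.5%), 10 in LH20/LH8 (30.1%) and 11 in LH20/LH1 (35.7%). With the fold criterion dropped, 1, 3, 4 and 8 of the 13 passed at 1, 4, 8 and 20 h against LHR+ cells, where 0.786%, 5.97%, 5.73% and 23% of all probe sets passed. The same criteria were passed by 0 in LH4/LH1 (4.57%), 3 in LH8/LH4 (4.12%), 7 in LH20/LH8 (16.4%) and 8 in LH20/LH1 (23.9%). The probe sets so added at 20 h against LHR+ cells were those of QPCT and HYI, which were lower, and PDZK1IP1 219630_at, which was higher. The median log2 difference of the 13 probe sets was -0.09, -0.09, 0.02 and -0.07 from LHR+ cells at 1, 4, 8 and 20 h, against 0.02, 0.01, -0.03 and 0.00 for all probe sets. In LH20/LH1 it was 0.30, against -0.05 for all. Members that were higher and lower at 20 h were both present, so the median does not describe them as a group.

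Under LH most probe sets stayed above LHR- cells, also where they differed from untreated LHR+ cells. Of the 13 probe sets, 11 had all arrays above all LHR- arrays in each of the 5 LHR+ groups. The other 2 were SANBR 243539_at and OR7E19P, which at 20 h differed from LHR- cells by a log2 difference of 0.24. The LHR- arrays also served to choose the genes, so the count of 11 is in large part a consequence of the choice. The share of all probe sets with such a separation was not counted. At 20 h the log2 difference from LHR- cells was 5.80 for QPCT, 5.63 for RBP7, 5.38 for SANBR 244673_at, 7.18 for ZNF114 1552946_at, 4.33 for HYI 223769_x_at, 4.65 for PDZK1IP1 219630_at and 2.66 for BST1. ZNF114 therefore stood above QPCT in this difference at 20 h and below it before LH.

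The genes that flank each member in the RefSeq gene order were mostly alike in LHR+ and LHR- cells. The 3 nearest genes with a probe set on each side of the 8 members gave 48 neighbours, each taken by its brightest probe set. Of these, 2 were called higher and 2 lower in LHR+ cells, where 4.2% of all genes were called in either direction, and their median log2 difference was -0.04. The neighbours called higher were TAL1, the gene next to PDZK1IP1 on chromosome 1, and C2orf74-DT, 2 places from SANBR on chromosome 2. Those called lower were HYI-AS1, which is antisense to HYI on chromosome 1, and FGFBP1 near BST1 on chromosome 4.

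TAL1 encodes a transcription factor of blood and endothelial cells. Its 206283_s_at probe set read 124, 123 and 146 in LHR+ cells and 14.3, 8.56 and 6.40 in LHR- cells. The log2 difference was 3.68 (standard error 0.26, adjusted p = 1.29e-06, limma), which put TAL1 at rank 18 of all genes, and no array overlapped. Its other 3 probe sets were dim, with means between 3.04 and 34.5 in LHR+ and LHR- cells, and were not called. Under LH the difference of 206283_s_at from LHR+ cells was -0.43, -0.05, -0.46 and -0.37 at 1, 4, 8 and 20 h, with adjusted p of 0.415 to 0.968 (limma). LINC00853, on the far side of PDZK1IP1, averaged 12.8 ± 13.6 in LHR+ cells and 7.36 ± 9.10 in LHR- cells (SD, n = 3 each) and was not called.

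C2orf74-DT is a noncoding transcript of the interval that holds SANBR, and both of its probe sets were higher in LHR+ cells. 227941_at read 1175, 1211 and 1499 in LHR+ cells and 46.4, 64.0 and 74.3 in LHR- cells, a log2 difference of 4.39 (adjusted p = 9.52e-10, limma). 227940_at read 1633, 1945 and 889 in LHR+ cells and 380, 163 and 254 in LHR- cells, a log2 difference of 2.49 (adjusted p = 0.000265, limma). At 8 h 227941_at read 2488, 2249 and 2596, above untreated LHR+ cells by a log2 difference of 0.92 (adjusted p = 0.00416, limma), and at 20 h 1678, 1587 and 1544. Like SANBR 244673_at it was thus highest at 8 h among the 6 groups, whereas 227940_at was 0.27 above LHR+ cells at 8 h (adjusted p = 0.761, limma). PUS10, on the other side of SANBR, had a log2 difference of 0.18 between LHR+ and LHR- cells (adjusted p = 0.683, limma).

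**Figure D3:**
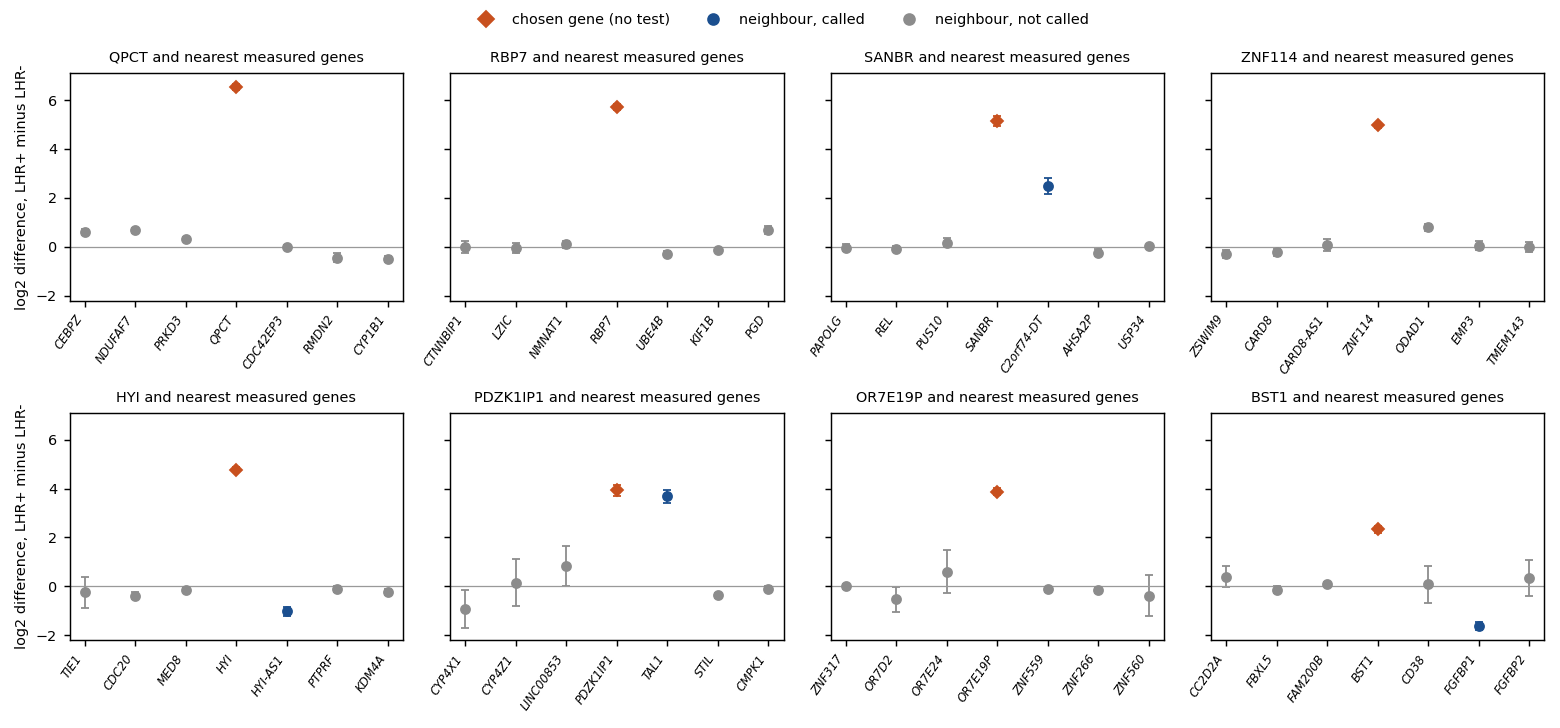
Log2 difference of LHR+ minus LHR- cells (vertical axis) for each chosen gene (diamond) and the 3 nearest measured genes on each side in RefSeq order, each by its brightest probe set; bars are standard errors. TAL1 at 3.68 and C2orf74-DT at 2.49 were called higher, HYI-AS1 and FGFBP1 lower, and the other 44 neighbours were not called.

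HYI-AS1 is transcribed from the strand opposite to HYI, and between LHR+ and LHR- cells it differed in the opposite direction. It read 116, 148 and 132 in LHR+ cells and 272, 302 and 228 in LHR- cells, a log2 difference of -1.01 (standard error 0.18, adjusted p = 0.00397, limma). At 20 h of LH, HYI-AS1 differed from LHR+ cells by -0.63 (adjusted p = 0.0287, limma), under a fold of 2 and in the same direction as HYI. FGFBP1, which encodes a secreted fibroblast growth factor carrier, averaged 94.1 ± 7.32 in LHR+ cells and 293 ± 26.0 in LHR- cells (SD, n = 3 each), and the log2 difference was -1.63 (adjusted p = 2.30e-05, limma). FGFBP1 rose with LH, by 1.13, 3.85 and 3.26 at 1, 4 and 8 h (adjusted p of 0.00325, 1.21e-08 and 1.21e-07, limma), where BST1 had no call. At 20 h FGFBP1 was not called against LHR+ cells. CD38, the gene related to BST1 that follows it as the next measured gene on chromosome 4, was dim, at 13.0 ± 9.11 in LHR+ cells and 14.5 ± 14.3 in LHR- cells (SD, n = 3 each). At 20 h 4 neighbours were called against LHR+ cells (7.4% of all genes). CDC42EP3 near QPCT and the mitotic gene CDC20 near HYI were lower by 2.18 and 1.09, and ODAD1 next to ZNF114 and CC2D2A near BST1 were higher by 1.85 and 1.32. ODAD1 read 532 ± 46.0 at 20 h and 147 ± 14.8 in LHR+ cells (SD, n = 3 each), with an adjusted p of 1.65e-06 (limma).

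OR7E19P belongs to a family of near-identical pseudogene copies, so its probe set may read several of them, and which copy was measured was not tested. The 9 probe sets of 8 other OR7E genes gave 0 calls between LHR+ and LHR- cells (3.36% of all probe sets), 7 of them with a difference above 0. OR7E37P averaged 821 ± 5.81 in LHR+ cells and 508 ± 24.7 in LHR- cells (SD, n = 3 each). Its log2 difference was 0.69 (adjusted p = 0.000566, limma), under a fold of 2. At 20 h OR7E37P read 484, 566 and 565, a difference of -0.61 from LHR+ cells (adjusted p = 0.000521, limma). OR7E14P read 17.0, 14.9 and 34.2 at 20 h and 46.8, 50.0 and 51.7 in LHR+ cells, a called difference of -1.22 (adjusted p = 0.00750, limma). OR7E47P differed by -0.89 in LH20/LHR+ (adjusted p = 0.117, limma), and the difference of -1.13 in LH20/LH1 was called (adjusted p = 0.0451, limma). These 3 are named for their values and were picked after those were seen, and the other 6 OR7E probe sets had no call between LHR+ and LHR- cells, between any LH time and LHR+ cells, or in LH20/LH1.

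**Figure D4:**
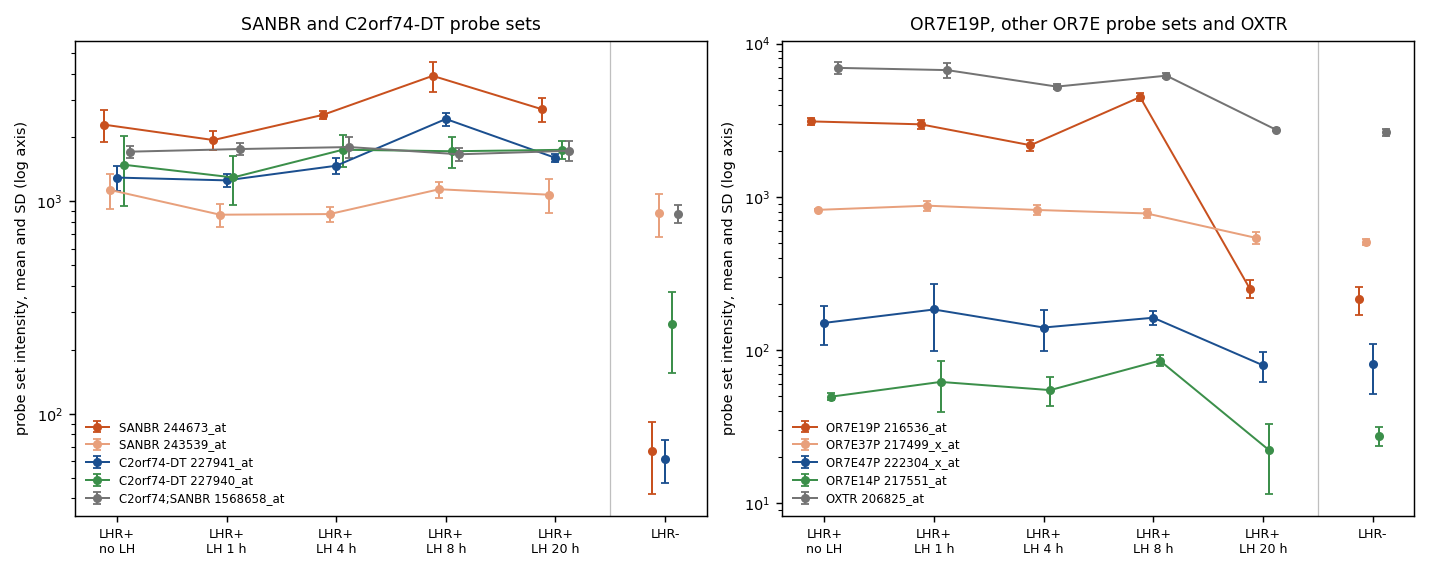
Mean intensity with SD of 3 arrays (vertical log axis) in LHR+ cells without LH and after 1, 4, 8 and 20 h of LH, joined by lines, and in LHR- cells at the right. On the left, SANBR 244673_at and C2orf74-DT 227941_at are both highest at 8 h; on the right, OR7E19P is at 252 at 20 h, against 214 in LHR- cells.

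Of the genes that work with QPCT, as glutaminyl cyclase relatives and substrates, 0 of 13 with a probe set were called in LHR+ against LHR- cells. Over all genes 2.34% were called up and 1.86% down there. The median log2 difference of the 13 was 0.20, against -0.0035 for all genes. Among all genes, 0.319%, 1.97%, 1.44% and 7.4% were called against LHR+ cells at 1, 4, 8 and 20 h, and 7.62% in LH20/LH1, which are the shares to set beside the counts under LH that follow. QPCTL, the Golgi relative of QPCT, read 20.1 ± 6.90 in LHR+ cells and 15.9 ± 4.06 in LHR- cells (SD, n = 3 each). GNRH1, which encodes a peptide hormone that carries pyroglutamate, fell at 1 h to 295 ± 80.4, against 717 ± 42.1 in LHR+ cells (SD, n = 3 each, adjusted p = 0.00402, limma). It was 1280 ± 246 at 20 h, a log2 difference of 2.13 from LH1 (adjusted p = 4.24e-06, limma). At 4 h 1 of the 13 genes was called against LHR+ cells, QPCTL, which fell to 4.80 ± 0.860, against 20.1 ± 6.90 in LHR+ cells (SD, n = 3 each, adjusted p = 0.00680, limma), both dim. At 20 h 1 was called higher and 1 lower. PGPEP1, which removes pyroglutamate from peptides, rose by 1.01 (adjusted p = 0.00243, limma), and the chemokine gene CCL7 fell to 0.934 ± 0.386, against 4.75 ± 3.40 in LHR+ cells (SD, n = 3 each, adjusted p = 0.0499, limma), near 0 in both.

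For retinoid binding, conversion and receptors, 0 of 28 genes were called higher and 1 lower in LHR+ than in LHR- cells. The gene called lower was ALDH1A3, which oxidises retinal to retinoic acid. It averaged 221 ± 23.5 in LHR+ cells and 632 ± 64.8 in LHR- cells (SD, n = 3 each), a log2 difference of -1.51 (adjusted p = 0.000240, limma). At 20 h ALDH1A3 fell further, by 2.33 against LHR+ cells (adjusted p = 2.01e-06, limma), while RDH10, which makes retinal from retinol, rose by 1.26 (adjusted p = 1.10e-05, limma) and RARRES2 by 1.08 (adjusted p = 0.00130, limma). The relatives of RBP7 were dim. RBP2 lay between 5.36 and 16.9 on the LHR+ arrays and between 21.6 and 37.4 on the LHR- arrays, and RBP5 between 2.03 and 23.9 and between 4.73 and 24.7 on the same arrays. CRABP2 averaged 50.0 ± 33.0 in LHR+ cells and 85.2 ± 29.1 in LHR- cells (SD, n = 3 each), and none of the 3 was called there.

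Among 24 genes of NAD and cyclic ADP-ribose metabolism, which BST1 belongs to, 2 were called higher and 1 lower in LHR+ cells. NNT, the mitochondrial transhydrogenase, averaged 125 ± 21.4 in LHR+ cells and 10.6 ± 4.68 in LHR- cells (SD, n = 3 each), a log2 difference of 3.52 (adjusted p = 3.80e-06, limma). SARM1, which cleaves NAD, differed by 1.59 (adjusted p = 1.19e-05, limma). ENPP3 was the gene called lower, at 3.36 ± 0.446 in LHR+ cells and 16.5 ± 9.54 in LHR- cells (SD, n = 3 each), both dim. Under LH 2 genes of the list were called higher than in LHR+ cells and 1 lower at 4 h, 0 and 1 at 8 h, and 2 and 2 at 20 h. Those higher at 4 h were the NAD-dependent deacetylase gene SIRT1, by a log2 difference of 1.11 (adjusted p = 0.0792, limma), and ENPP3, by 2.01 (adjusted p = 0.0619, limma). ENPP3 was also among those higher at 20 h, at 14.7 ± 2.62 (SD, n = 3, adjusted p = 0.0306, limma). NT5E, the ectonucleotidase CD73, fell by 1.01, 1.21 and 3.00 at 4, 8 and 20 h against LHR+ cells (adjusted p of 0.00830, 0.00290 and 2.42e-07, limma). QPRT, of NAD synthesis from quinolinate, rose by 1.49 at 20 h (adjusted p = 2.80e-05, limma), and NMNAT2 fell by 1.30 (adjusted p = 0.000556, limma).

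The remaining lists had 0 calls between LHR+ and LHR- cells. They were 10 genes of PDZ scaffolds and transporters around PDZK1IP1, 15 of class switch recombination and end joining, 5 KRAB zinc finger corepressors, and 13 of hydroxypyruvate, glyoxylate and serine metabolism. PDZK1 itself averaged 7495 ± 350.0 in LHR+ cells and 5567 ± 665 in LHR- cells (SD, n = 3 each), a log2 difference of 0.43 under a fold of 2 (adjusted p = 0.00827, limma). At 20 h 1 gene of the scaffold list was called against LHR+ cells, SLC34A1, at 16.3 ± 4.13 and 3.89 ± 4.81 (SD, n = 3 each), and 1 of the class switch list, H2AX, which was lower by 1.53 (adjusted p = 0.000150, limma).

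Over the 18 arrays, the genes most like the members in log2(intensity + 1) were partly the members themselves. Members were chosen by their LHR+ over LHR- difference. That difference enters r over 18 arrays, so a high r among members follows in large part from the choice. The Pearson r of QPCT with HYI was 0.998 over 18 arrays and 0.816 over the 15 arrays of LHR+ cells with or without LH. ZNF22, a zinc finger gene, was the other gene most like QPCT, at 0.992 and 0.788, and it averaged 1148 ± 63.4 in LHR+ cells and 98.4 ± 13.6 in LHR- cells (SD, n = 3 each). RBP7 correlated with HYI at 0.991 and with QPCT at 0.991 over 18 arrays but at -0.12 and -0.16 over the 15. SANBR and BST1 were most like TNFRSF21, at 0.983 and 0.980 over 18 arrays and 0.570 and 0.581 over the 15. PDZK1IP1 was most like DBNDD1, at 0.980 and 0.779.

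For ZNF114 and OR7E19P r was 0.943 to 0.958 within the 15 arrays, higher than the 0.816 of QPCT with HYI. The 15 arrays are part of the 18 by which the partner genes were picked. ZNF114 was most like BNIP3, a mitochondrial protein gene known to respond to low oxygen, with r of 0.985 over 18 arrays and 0.943 over 15, and like RNASET2, with 0.973 and 0.951. On its 201849_at probe set BNIP3 averaged 8561 ± 477 at 20 h, 5866 ± 4.71 in LHR+ cells and 2700 ± 182 in LHR- cells (SD, n = 3 each). OR7E19P was most like OXTR, the oxytocin receptor gene, with r of 0.973 and 0.956, and like CDC123, with 0.964 and 0.958. OXTR averaged 2739 ± 58.7 at 20 h, 6945 ± 605 in LHR+ cells and 2647 ± 135 in LHR- cells (SD, n = 3 each), and fell by 1.34 in LH20/LHR+ (adjusted p = 1.01e-06, limma). The arrays share their groups, so these coefficients describe the 18 arrays and carry no test.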

How the data were processed

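The authors hybridised RNA, amplified with the NuGEN Ovation kit, from 3 independent replicates of each of 6 groups to U133 Plus 2.0 arrays and deposited linear probe set intensities in a single table. The labels' processing notes name PLIER, whereas the methods name RMA, so the summarisation of the deposited intensities is not settled. A brightest probe set was taken per gene from the 41097 probe sets with 1 symbol. Another 1801 list several symbols and 11777 none. log2(intensity + 1) of all 54675 probe sets was fitted with 1 mean per group in limma 3.58.1 (R 4.3.3, the data.table package, version 1.17.8) and p-values were Benjamini-Hochberg adjusted over all of them. The fit was tested on simulated data. Where groups have 3 arrays, an exact permutation test of 1 value could not go below p = 0.1. The limma p-values set differences of group means against the spread between replicate arrays, pooled over the 6 groups. They do not cover differences between transfected lines. Tables and plots used Python 3.11.15 and matplotlib 3.10.9.

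The members and the gene lists were chosen with earlier results of these data known. Genes named are the members, list genes that were called, nearest relatives and neighbours, and the 2 genes most correlated with each member. Alternatives were a pseudocount of 16, no fold threshold, equal array medians, quantile normalization, a replicate block, brightest probe sets only, and leaving out each array. The arrays carry no molecule counts, and their number limits the precision.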

Additional observations from a re-analysis of the deposited data

Results flagged for a closer look

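The 2 genes that changed under LH also differed between LH times when those times were compared directly with limma. These arrays did not serve to choose the 8 genes, though the limma fit took its spread from all 18 arrays. ZNF114 and OR7E19P were singled out among the 8 by calls that use the same LH arrays, so the comparisons are not separate support. ZNF114 differed in LH8/LH4 by a log2 difference of 2.27 on 1552946_at and 2.14 on 1552947_x_at, and in LH20/LH1 by 2.91 and 2.83. OR7E19P differed by 1.05 in LH8/LH4, by -4.16 in LH20/LH8 and by -3.56 in LH20/LH1. The response of OR7E19P thus has opposite signs between the 4 to 8 h and the 8 to 20 h intervals. Its probe set may read other copies of the family, which was not tested.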

How the results depend on the processing

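With the replicate number as a block (replicate block), 0, 0, 2 and 3 of the 13 probe sets were called at 1, 4, 8 and 20 h against LHR+ cells, and 0, 3, 1 and 3 in LH4/LH1, LH8/LH4, LH20/LH8 and LH20/LH1, the same counts as without it. Over all probe sets, same-numbered arrays did not deviate together (r from -0.025 to 0.047 over 27 pairs). A pairing that touches few probe sets could not be seen in this way. Without the fold threshold 1, 3, 4 and 8 were called at 1, 4, 8 and 20 h, 7 in LH20/LH8 and 8 in LH20/LH1. With the brightest probe set per gene alone, 1 was called at 8 h, since ZNF114 then counts once. A pseudocount of 16 lowered the median log2 difference of LHR+ from LHR- cells to 4.09, against 4.73, and put RBP7 (5.35) ahead of QPCT (5.20). Leaving out 1 array gave 1 to 2 calls in LH20/LH8. Signs turned only for differences near 0. With equal array medians LH4/LHR+ was -0.063 for HYI and -0.048 for PDZK1IP1, against 0.0024 and 0.017. Leaving out 1 array gave -0.082 to 0.065 for HYI and -0.14 to 0.12 for PDZK1IP1 in LH4/LHR+, and for RBP7 -0.15 to 0.0057 in LH1/LHR+ and -0.097 to 0.075 in LH20/LH1. Of the counts and medians, 118 values were alike and 11 moved. Of the single genes, 645 kept direction and side of the threshold, 11 passed it newly, 10 turned sign and 6 moved. The cause was not tested.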
